A study of Mus musculus with 4 samples.

Results

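Tmcc1, Hcst and Lyz2 are 3 mouse genes, of 56941 in the count tables, that were picked because their levels were lower in c-Kit+ marrow labelled as Rbm5 knockout than in its wild-type counterpart. That contrast therefore describes how they were chosen, and no support is taken from it. The leukaemia libraries of the same study were not used for the choice.

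The study profiled mouse bone marrow cells by droplet single-cell RNA sequencing, which counts each captured transcript once by a unique molecular identifier (UMI). There were 4 libraries, 1 for each group. Cells labelled c-Kit+, after the receptor carried by blood stem and progenitor cells, came from wild-type (WT) and from Rbm5 knockout (KO) marrow. Leukaemia cells labelled MLL-AF9, after a fusion protein that drives acute myeloid leukaemia, also came as WT and KO, at the same endpoint after a primary transplantation. The submitters asked whether RBM5, an RNA-binding protein that acts in splicing, controls the self-renewal genes of the leukaemia's stem cells. The way the gene was deleted, the strain, the age, the number of mice behind a library and the cells left from the transplanted host are not given in the sources used here. With 1 library per group there was no test of a difference between groups, and every interval below is a 95% interval for counting error alone.

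After removal of cells with under 500 genes, under 1000 UMIs or over 10% mitochondrial UMIs, and of called doublets, 11406 to 13284 cells and 86739221 to 96153076 UMIs remained per library. Median depth was 5168 UMIs per cell in WT c-Kit+, 5297 in KO c-Kit+, 5810 in WT MLL-AF9 and 7310.5 in KO MLL-AF9. Any 2 libraries shared 44 to 69 cell barcodes, at most 0.487% of the smaller one. Kit itself was detected in 17.0% and 17.9% of cells of the WT and KO c-Kit+ libraries, and 65.0% and 61.3% of their cells carried neutrophil markers by the gates described below. Rbm5, the targeted gene, stood at 75.4 CPM, the UMIs of a gene per 1000000 UMIs of the library, in WT c-Kit+ and 89.9 CPM in the library labelled KO c-Kit+. It stood at 160.4 CPM in WT MLL-AF9 and 116 CPM in the library labelled KO MLL-AF9. Counts over the whole gene thus showed no loss in the c-Kit+ pair. Which exons were deleted is not given, so the labels are not tested by these counts, and WT and KO below mean the libraries labelled so.

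The genes code for unrelated proteins. Lyz2 codes for lysozyme M, the enzyme by which neutrophils, monocytes and macrophages cut the peptidoglycan of bacterial walls, and it is a standard marker of the myeloid lineage. Hcst codes for DAP10, a small membrane adaptor that pairs with the receptor NKG2D (Klrk1) in killer and T cells and recruits phosphatidylinositol 3-kinase and Grb2. Its neighbour Tyrobp codes for DAP12, an adaptor that signals through Syk instead. Tmcc1 codes for a coiled-coil membrane protein of the endoplasmic reticulum that is found where the reticulum touches endosomes and takes part in their fission.

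In GRCm38 (mm10), with the GENCODE M21 annotation, Tmcc1 (ENSMUSG00000030126) lies on chromosome 6 from 116018611 to 116193486, minus strand. Hcst (ENSMUSG00000064109) lies on chromosome 7 from 30417712 to 30419854, minus strand, and ends 126 bases from the end of Tyrobp (30413760 to 30417585, plus strand). Lyz2 (ENSMUSG00000069516) lies on chromosome 10 from 117277331 to 117282321, minus strand, 5475 bases from its paralog Lyz1 (ENSMUSG00000069515, 117287797 to 117292868, minus strand). The RefSeq promoter table (GRCm38.p6) held 2 of the 3 members, Hcst and Lyz2. Their sequences upstream of the annotated start are shown, with that of Lyz1, because the members were lower together in c-Kit+ cells and Lyz1 is the close copy that was hardly detected. Capitals mark AGGAAG or its complement CTTCCT, a core bound by ETS factors such as the myeloid regulator PU.1. The windows are chr7:30419855-30420104 for Hcst, chr10:117282322-117282522 for Lyz2 and chr10:117292869-117293118 for Lyz1, all read from the minus strand.
Hcst: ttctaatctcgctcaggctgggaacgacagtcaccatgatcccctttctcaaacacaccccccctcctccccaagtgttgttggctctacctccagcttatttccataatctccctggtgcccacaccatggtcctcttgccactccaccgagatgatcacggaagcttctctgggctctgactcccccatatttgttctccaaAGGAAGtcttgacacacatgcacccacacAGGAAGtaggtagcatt
Lyz2: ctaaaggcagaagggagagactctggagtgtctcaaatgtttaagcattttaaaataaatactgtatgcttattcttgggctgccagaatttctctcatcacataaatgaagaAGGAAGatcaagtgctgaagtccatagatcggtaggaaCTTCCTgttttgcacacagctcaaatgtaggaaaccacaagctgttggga
Lyz1: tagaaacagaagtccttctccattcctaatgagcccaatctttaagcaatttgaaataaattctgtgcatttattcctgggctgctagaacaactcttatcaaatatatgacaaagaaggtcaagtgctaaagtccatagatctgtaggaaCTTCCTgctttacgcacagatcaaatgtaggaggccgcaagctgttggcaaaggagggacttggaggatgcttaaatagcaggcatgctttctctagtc
Hcst held 2 matches, beginning 46 and 17 bases before its start. Lyz2 held 2, beginning 137 and 99 bases before its RefSeq start, and Lyz1 held 1, also 99 bases before its start. Of all 32851 promoter windows in the table, 29.5% held at least 1 match in 250 bases and 6.25% held at least 2. In windows of 201 bases, the length shown for Lyz2, 4.19% held at least 2. A match of these letters is a description of the sequence and not evidence of binding. The first 201 bases of the Lyz2 and Lyz1 windows were identical at 74.4% of aligned positions, and the transcripts at 92.0%.

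In c-Kit+ cells all 3 genes were lower in the KO library. Tmcc1 stood at 285 CPM (WT) and 179.6 CPM (KO), a ratio of 0.630 (0.618 to 0.642). Hcst stood at 128 CPM (WT) and 83.4 CPM (KO), a ratio of 0.650 (0.631 to 0.669). Lyz2, the most abundant of them, stood at 3663 CPM (WT) and 2686 CPM (KO), a ratio of 0.733 (0.729 to 0.737). None of these intervals reached 1, but they leave out any variation between mice. On the log2 scale with 1 CPM added, the differences were -0.66, -0.62 and -0.45, against a median of -0.01 and an SD of 0.15 over the 9564 genes whose mean reached 5 CPM. Ordered from the lowest ratio, Tmcc1 was gene 13, Hcst gene 16 and Lyz2 gene 39 of those. Tmcc1 and Hcst passed a 1.5-fold difference and Lyz2 did not. Of all tested genes, 0.199% were lower by 1.5-fold or more. The members were chosen on this contrast, so that share is given without a reading.

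Detection followed the levels. With each cell thinned to 2000 UMIs, which left out 1423 shallower WT cells and 1772 KO cells, Tmcc1 was detected in 42.5% of the WT and 32.0% of the KO c-Kit+ cells. Hcst was seen in 26.5% and 18.1%, and Lyz2 in 73.2% and 69.6%. Without thinning the shares were 64.6% and 54.5% for Tmcc1, 50.7% and 38.1% for Hcst, and 82.4% and 79.8% for Lyz2. In the cells that held any Lyz2, the mean was 31.2 UMIs in WT and 24.4 in KO. Lyz2 was thus detected in a nearly equal share of KO cells, with a lower mean count per positive cell. That mean is over the whole library and also moves with its make-up of cell types.

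**Figure D1:**
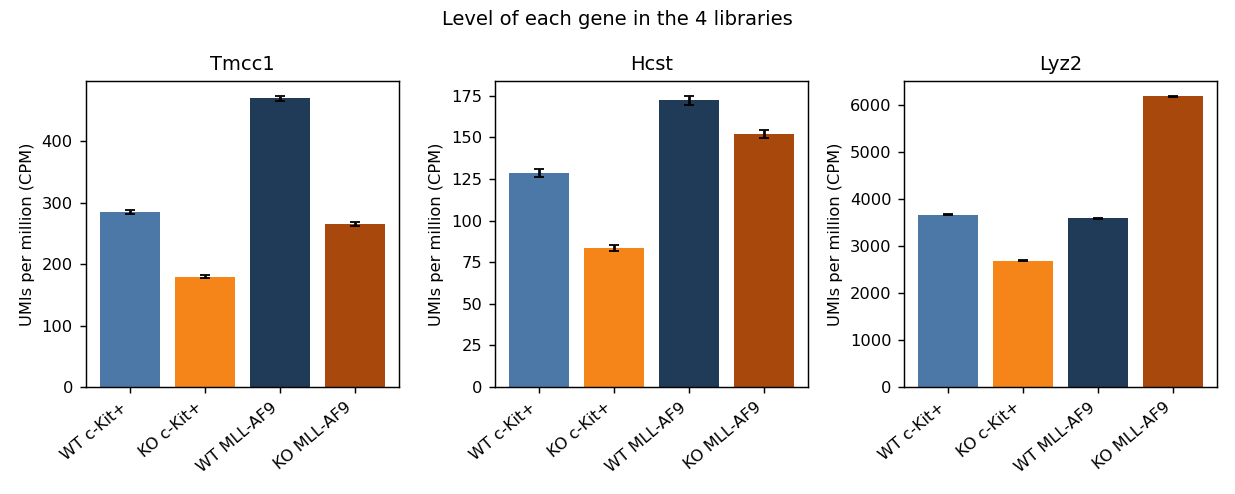
CPM (UMIs per 1000000, y axis, separate scale in each panel) of Tmcc1, Hcst and Lyz2 in the 4 libraries (x axis), with 95% Poisson intervals as error bars, which cover counting error only. All 3 genes are lower in KO than in WT c-Kit+, Tmcc1 and Hcst are also lower in KO MLL-AF9, and Lyz2 is highest in KO MLL-AF9 at 6184 CPM.

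In the leukaemia libraries, a contrast that the choice did not use, the 3 genes parted. Tmcc1 was lower in KO, at 470.1 CPM (WT) and 265 CPM (KO), a ratio of 0.564 (0.555 to 0.573). Hcst stood at 172 CPM (WT) and 152 CPM (KO), a ratio of 0.883 (0.863 to 0.904). Lyz2 was higher in KO, at 3590.2 CPM (WT) and 6184 CPM (KO), a ratio of 1.72 (1.72 to 1.73). The leukaemia pair differed broadly. The median log2 difference of its 9897 tested genes was -0.39 with an SD of 0.80. Of these genes, 35.2% were lower by 1.5-fold or more and 9.57% were higher by as much. Against that background the log2 difference of -0.82 for Tmcc1 was unexceptional, with 20.5% of genes lower still. The value for Hcst, -0.18, lay above the median, and it turned to 0.19 when libraries were scaled by median-ratio size factors. Lyz2, at 0.78, was higher than 92.9% of genes and stayed positive under that scaling, at 1.15.

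Thinned to 2000 UMIs, Tmcc1 was detected in 47.2% of the WT and 38.4% of the KO leukaemia cells, and Lyz2 in 79.5% and 92.7%. Hcst was seen in 29.1% and 27.5%. Before thinning Hcst was detected in 57.2% of the WT and 61.5% of the KO cells. The unthinned order goes against the CPM and moves with the greater depth of the KO cells, so it is not read.

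Between the wild-type libraries, Tmcc1 was higher in leukaemia than in c-Kit+ cells by a ratio of 1.65 (1.62 to 1.67) and Hcst by 1.34 (1.31 to 1.37). Lyz2 was nearly level, at 0.980 (0.975 to 0.985). The median log2 difference of all 10038 tested genes was 0.27, 32.7% of them were higher by 1.5-fold or more in leukaemia, and 11.2% were lower by as much. Only Tmcc1 among the members passed that fold. Both libraries also serve as the WT side of the KO ratios, so the comparisons are not independent.

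To separate levels from cell composition, cells were sorted by sets of marker genes for 17 cell types. A marker counted as on when its share of the cell's UMIs reached its mean share over the 4 libraries, and a cell joined the set with the largest share of markers on, with at least 3 on. The gates took in 92.7% of WT c-Kit+ cells and 91.8% of KO c-Kit+ cells, and 14 gates had 30 or more cells in both. The secondary granule immature neutrophil gate was the largest, with 4726 WT and 4574 KO cells, or 38.2% and 34.4% of each library. Only 3.24% of the cells of this gate lay near the border with another gate in either library, as against 24.8% and 22.4% of the late neutrophil gate. Median depth in the secondary granule gate was 4536.5 UMIs in WT and 4483.5 in KO. Its own markers made up a median of 12.2% of a cell's UMIs in WT and 12.3% in KO, and late neutrophil markers 0.22% and 0.23%. The same markers put cells in the gate, so their shares do not show that it held like cells in both libraries. They also made up 13.3% and 12.6% in the cycling preneutrophil gate.

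Tmcc1 was higher at each step along the neutrophil gates of the WT c-Kit+ library. It stood at 44.4 CPM in primary granule progenitors, 138 CPM in cycling preneutrophils, 544 CPM in secondary granule immature neutrophils and 1493 CPM in late neutrophils. The same gates in KO read 29.9, 94.2, 343 and 1020.0 CPM, so each KO level was below its WT level and the order was kept. The level in primary granule progenitors was under that of erythroid cells, the reference for free RNA used below. How much of either level is free RNA was not tested, so the level in these progenitors is not read. The ratios were 0.673 (0.608 to 0.745), 0.681 (0.618 to 0.749), 0.630 (0.613 to 0.648) and 0.683 (0.651 to 0.716). The secondary granule and late gates held 54.2% and 17.8% of all WT Tmcc1 UMIs. Outside the neutrophils Tmcc1 was present in B cells, at 278 CPM (WT) and 279.6 CPM (KO), a ratio of 1.01 (0.921 to 1.10). Monocytes, at 265 and 248 CPM, and macrophages, at 320.1 and 312 CPM, also had intervals that included 1. Basophils or mast cells read 196 CPM (WT) and 135 CPM (KO), a ratio of 0.688 (0.565 to 0.836). Stem and multipotent progenitors read 96.0 and 71.7 CPM, a ratio of 0.747 (0.642 to 0.868). Erythroid cells, in which Tmcc1 stood at 57.03 and 50.3 CPM, gave the level among cells of an unrelated lineage.

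Hcst had a different spread over types. The T cell gate (58 WT and 75 KO cells) had the highest level, at 597 CPM (WT) and 469 CPM (KO), and the NK cell gate (41 and 69 cells) read 452 and 405 CPM. These are cells in which DAP10 partners NKG2D, and their KO to WT intervals included 1, at 0.786 (0.598 to 1.03) and 0.896 (0.657 to 1.22). Basophils or mast cells came next, at 321 CPM (WT) and 250.1 CPM (KO). Among neutrophils Hcst was also higher at each step, at 101 CPM in primary granule progenitors and 151, 212 and 306 CPM in cycling, secondary granule and late cells of WT. The KO levels were 68.0, 94.9, 136 and 198 CPM. The ratios were 0.676 (0.632 to 0.723), 0.630 (0.574 to 0.692), 0.644 (0.616 to 0.673) and 0.647 (0.581 to 0.721). Although T and NK cells had the highest levels per UMI, they held only 1.01% and 0.727% of WT Hcst UMIs, and the secondary granule gate held 46.9%. Erythroid cells were near 0, at 6.55 and 5.56 CPM.

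Lyz2 peaked earlier, in secondary granule immature neutrophils, at 8551 CPM (WT) and 6767 CPM (KO). Late neutrophils followed at 5818 and 4174 CPM, monocytes at 4924 and 4850.2 CPM, and cycling preneutrophils at 4003 and 3118 CPM. Macrophages read 2732 and 2769 CPM and primary granule progenitors 596 and 455 CPM. The ratios were 0.791 (0.786 to 0.796) in the secondary granule gate, 0.717 (0.701 to 0.735) in the late gate, 0.779 (0.766 to 0.792) in cycling cells and 0.764 (0.744 to 0.785) in primary granule progenitors. In monocytes the ratio was 0.985 (0.964 to 1.01) and in macrophages 1.01 (0.911 to 1.13). Neutrophil gates thus had less Lyz2 in KO, and the intervals of the monocyte and macrophage gates, the other large producers of lysozyme, included 1. Whether the ratios differ between gates was not tested.

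Droplets also take up free RNA, and erythroid cells, with median depths of 12896 UMIs in WT and 9058 in KO, served as the reference for it. Camp, a secondary granule gene with no known role in red cell precursors, was detected in 69.8% of the WT and 79.2% of the KO erythroid cells thinned to 2000 UMIs. In the same cells Lyz2 was seen in 16.5% and 17.7%, Tmcc1 in 8.76% and 8.58%, and Hcst in 0.730% and 0.876%. Lyz2 in B cells, at 22.7% of cells in both libraries and 252 and 259.7 CPM, was close to its erythroid level of 251 and 224 CPM and is not read as expression. Tmcc1 in B cells, at 35.7% and 40.5% of cells, stood well above its erythroid share. In plasma cells Lyz2 read 898 CPM (WT) and 335 CPM (KO), and Camp moved with it, at 9688 and 3406 CPM. In T cells Lyz2 read 416 and 101 CPM, from 78 and 23 UMIs, and was seen in 20.8% and 19.7% of thinned cells. In macrophages Camp read 10892 and 4021 CPM, while Lyz2 was level. The part of free RNA in the ratios of the smaller gates was not tested. In the secondary granule gate Camp itself was nearly level, with a ratio of 0.989 (0.987 to 0.991), beside 0.791 for Lyz2. Camp is a marker that puts cells in this gate, so its level there is partly set by the gating and is no control for Lyz2.

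**Figure D2:**
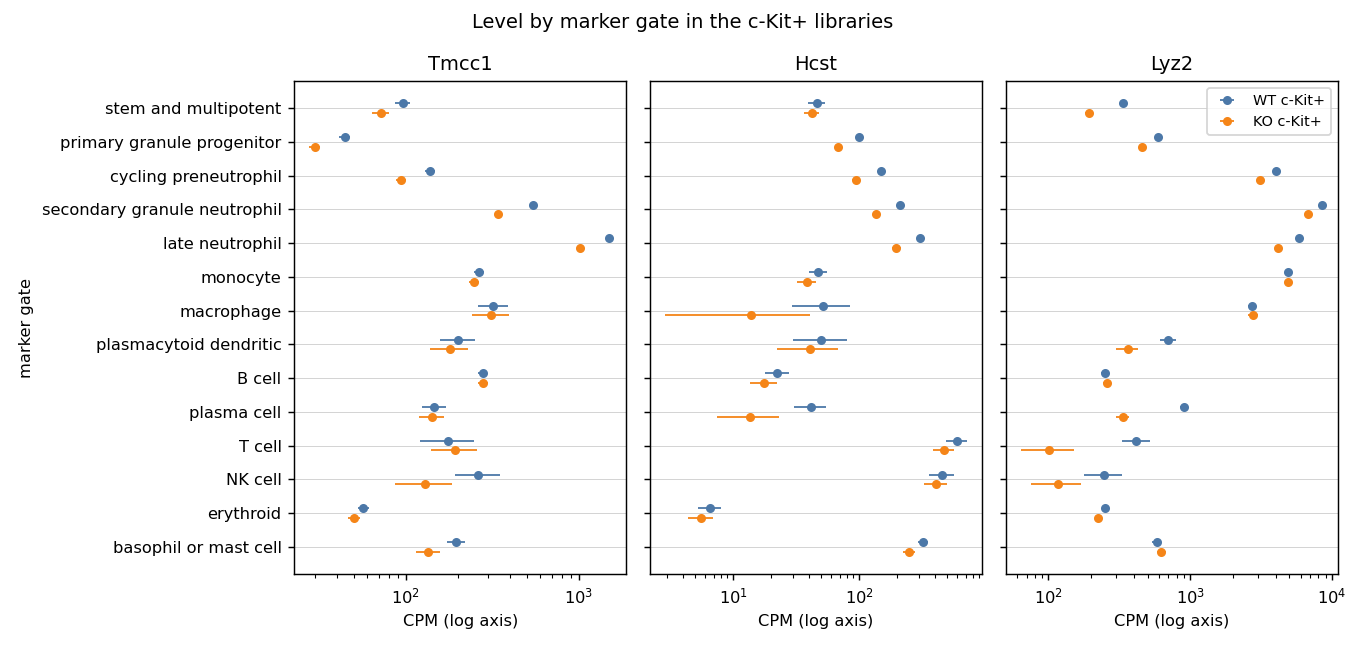
CPM (UMIs per 1000000, x axis, log scale) of each gene in the 14 marker gates (y axis) of the WT and KO c-Kit+ libraries, with 95% Poisson intervals for counting error. Tmcc1 is highest in late neutrophils at 1493 CPM in WT, Hcst in T cells at 597 CPM and Lyz2 in secondary granule neutrophils at 8551 CPM, and the KO points lie left of the WT points in every neutrophil gate.

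Over all 14 gates of the c-Kit+ pair, the counting interval lay below 1 in 8 for Tmcc1, in 7 for Hcst and in 10 for Lyz2, and above 1 in none. Where the mean of the gene reached 50 CPM, it lay below 1 in 7 of 13 gates for Tmcc1, 5 of 7 for Hcst and 10 of 14 for Lyz2. On that basis it lay below 1 for 15.3% of all 43601 pairs of a gene and a gate, and for 33.8% of genes in the secondary granule gate. Intervals are narrower for genes with more UMIs, so the counts of abundant members and the share are not alike. For Tmcc1 and Lyz2 the counts include the erythroid gate, the reference for free RNA. For Lyz2 they also include stem and multipotent progenitors, plasmacytoid dendritic, plasma, T and NK cells. There it stood between 246 CPM (NK cells) and 898 CPM (plasma cells) in WT. Primary granule progenitors, counted as well, read 596 CPM. In the secondary granule gate, where Tmcc1 and Hcst passed 1.5-fold, 0.352% of tested genes did so in the same direction. Hcst also passed it in cycling cells and in the late gate, where 1.05% of genes did. The other passes were in gates with little Lyz2 or few cells. They were Tmcc1 in NK cells (47 WT and 29 KO UMIs), Hcst in macrophages (16 and 3 UMIs) and plasma cells (47 and 14 UMIs), and Lyz2 in stem and multipotent progenitors, plasmacytoid dendritic cells, plasma cells, T cells and NK cells. No member passed it in primary granule progenitors, where 0.144% of genes did, or in monocytes, where 0.168% did. Like the whole-library values, these describe the contrast that chose the genes.

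The KO minus WT difference in CPM was split into a part within gates, with each gate weighted by its mean share of UMIs, and a part from the make-up of the library. All cells outside the 14 gates formed a further group, counted in the part within gates. It gave -4.81 CPM of that part for Tmcc1, -3.30 CPM for Hcst and -96.5 CPM for Lyz2. Its make-up could itself differ, as ungated cells had a median of 9.61% of UMIs from secondary granule markers in WT and 2.59% in KO. For Tmcc1 the within-gate part was -84.4 of -105.6 CPM, or 79.9%. For Hcst it was -41.7 of -45.0 CPM, or 92.6%. For Lyz2 it was -752 of -977 CPM, or 76.9%. The rest came from make-up. The secondary granule gate, whose make-up part was -14.5 CPM for Tmcc1, -5.68 CPM for Hcst and -249.8 CPM for Lyz2, held 28.4% of UMIs in WT and 25.1% in KO, while primary granule progenitors held 20.9% and 24.9%. The secondary granule gate alone gave -53.8 CPM of the within-gate part for Tmcc1, -20.2 CPM for Hcst and -477 CPM for Lyz2. Splitting the cells instead into the 18 Leiden clusters with 30 or more cells of both libraries, made without the 3 genes, gave within-cluster shares of 79.6%, 91.0% and 77.6%. Lower levels within these groups of cells thus made up most of each difference, whichever way the cells were divided.

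In leukaemia the gates took in 77.2% of WT cells and 89.4% of KO cells, and 7 gates had 30 or more cells in both. The names below say which markers put cells in a gate and not that they are normal cells. The pair was unlike in make-up, with 18.5% of WT and 38.2% of KO cells in the secondary granule gate and 18.9% and 9.64% in the monocyte gate. Cells of the cycling gate were led by mitotic genes such as Ube2c and Cenpf in both libraries. In the late gate, secondary granule markers made up a median of 1.03% of a cell's UMIs in WT and 1.70% in KO, beside 0.98% and 0.87% for late markers. Of 20 Leiden clusters of the pair, 15 drew 90% or more of their cells from 1 library, so cells of 1 gate in the 2 libraries also differed in many other genes.

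Tmcc1 was lower in KO in each of the 7 leukaemia gates. In the late neutrophil gate it stood at 1913 CPM (WT) and 645 CPM (KO), a ratio of 0.337 (0.328 to 0.346). In the secondary granule gate it stood at 672 and 297 CPM, and in the monocyte gate at 428 and 257 CPM. These passed 1.5-fold in gates where 24.4%, 19.0% and 20.7% of genes did. In the primary granule gate it stood at 96.9 and 64.7 CPM, just short of 1.5-fold, where 18.0% of genes passed. Ordered from the lowest ratio, Tmcc1 was gene 34 of 3027 in the late gate, 81 of 3008 in the secondary granule gate, 518 of 3661 in the monocyte gate and 653 of 3459 in the primary granule gate. It was also gene 20 of 3506 in T cells, where it read 210.0 and 47.5 CPM from 77 and 23 UMIs. In erythroid cells, the reference for free RNA, it was gene 46 of 2697, at 83.5 CPM (WT) and 25.5 CPM (KO), a ratio of 0.306 (0.214 to 0.437). The reference thus moved the same way, and its WT level was close to that of the primary granule gate. The part of free RNA in these ratios was not tested.

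Hcst was also lower in KO in all 7 leukaemia gates, although its whole-library value differed little. The gate values are in CPM only. The whole-library value turned to 0.19 with median-ratio size factors, and the gate ratios are not given under that scaling. In the late neutrophil gate it stood at 299 CPM (WT) and 226 CPM (KO), and in the secondary granule gate at 254 and 188 CPM. The monocyte gate read 87.4 and 48.96 CPM, a ratio of 0.560 (0.504 to 0.622), and T cells read 779.9 and 586 CPM, a ratio of 0.751 (0.635 to 0.888). The monocyte value passed 1.5-fold, as 20.7% of genes did there, and was gene 400 of 3661 from the lowest ratio. Hcst was gene 1092 of 3027 in the late gate and 806 of 3008 in the secondary granule gate. In erythroid cells it was listed at 24.6 CPM (WT) and 5.99 CPM (KO), from 20 and 15 UMIs, so the reference for free RNA also moved the same way. At a mean of 50 CPM or above, the interval lay below 1 in all 6 gates that Hcst reached and all 7 that Tmcc1 reached, and for 51.9% of all 22783 gene and gate pairs in this comparison.

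Lyz2 was higher in KO in 4 of the 7 leukaemia gates, lower in 2 and included 1 in T cells. The interval lay above 1 for 23.5% of all gene and gate pairs. In the monocyte gate Lyz2 stood at 5292 CPM (WT) and 10548 CPM (KO), a ratio of 1.99 (1.98 to 2.01). In the primary granule gate it stood at 827 and 2180.2 CPM, a ratio of 2.64 (2.59 to 2.69), and in cycling cells at 764 and 1746 CPM. Camp was higher in KO in 6 of the 7 gates and lower in the monocyte gate, at 757 and 692 CPM. It stood at 1918 CPM (WT) and 6000.4 CPM (KO) in the primary granule gate and at 14489 and 25438 CPM in cycling cells. In the secondary granule gate Camp stood at 22814 and 28110 CPM, a ratio of 1.23, and in the late gate at 3148 and 5108 CPM. In the same secondary granule gate Lyz2 stood at 6557 and 8426 CPM, a ratio of 1.28. Camp is a marker of this gate, so its level there is partly set by the gating. Lyz2 in the late neutrophil gate went the other way, at 9048 CPM (WT) and 8318 CPM (KO), a ratio of 0.919 (0.911 to 0.928). For Lyz2 the erythroid cells, the reference for free RNA, read 476 and 327 CPM.

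**Figure D3:**
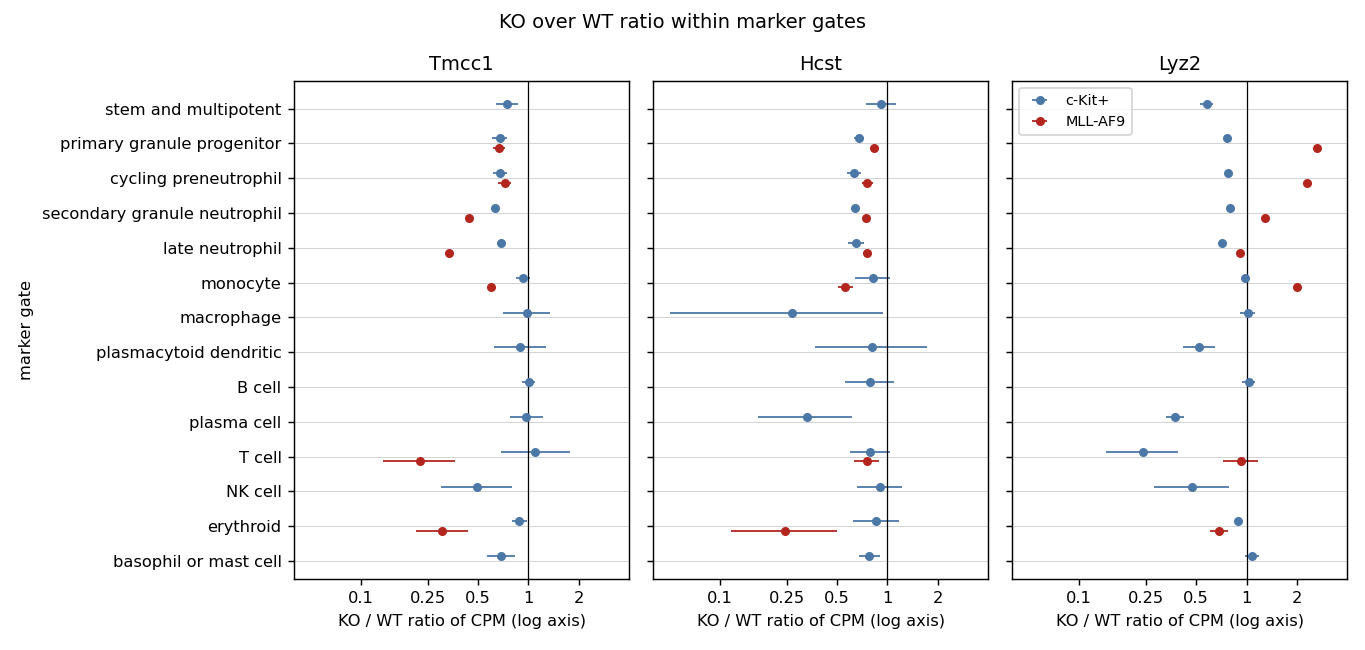
Ratio of KO to WT CPM (x axis, log scale, line at 1) for each gene within marker gates (y axis), in the c-Kit+ pair (14 gates) and the MLL-AF9 pair (7 gates), with 95% exact intervals for counting error. Tmcc1 and Hcst lie below 1 in the neutrophil gates of both pairs, and Lyz2 lies below 1 there in c-Kit+ and at 0.919 to 2.64 in leukaemia.

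Split in the same way, the leukaemia difference of Tmcc1 was -311 CPM within gates and 106 CPM from make-up, which together gave -205 CPM. For Hcst the parts were -47.8 and 27.7 CPM. For both genes the KO library held more of the secondary granule and late neutrophil gates in which they were high, and the levels within those gates were lower in CPM. For Lyz2 the parts had the same sign, at 1622 CPM within gates and 972 CPM from make-up. Cells outside the 7 gates were again counted as a further group in the part within gates. They gave -23.6 CPM of it for Tmcc1, -6.23 CPM for Hcst and 97.8 CPM for Lyz2. Only 3 Leiden clusters held 30 or more cells of both libraries, and they covered 8.13% of WT and 4.27% of KO UMIs. All cells outside these clusters formed 1 further group, counted in the within part. With that group included, the within part was -170 CPM for Tmcc1, -22.9 CPM for Hcst and 2957 CPM for Lyz2. Most cells were thus not matched by cluster, so these cluster values do not separate levels from make-up.

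**Figure D4:**
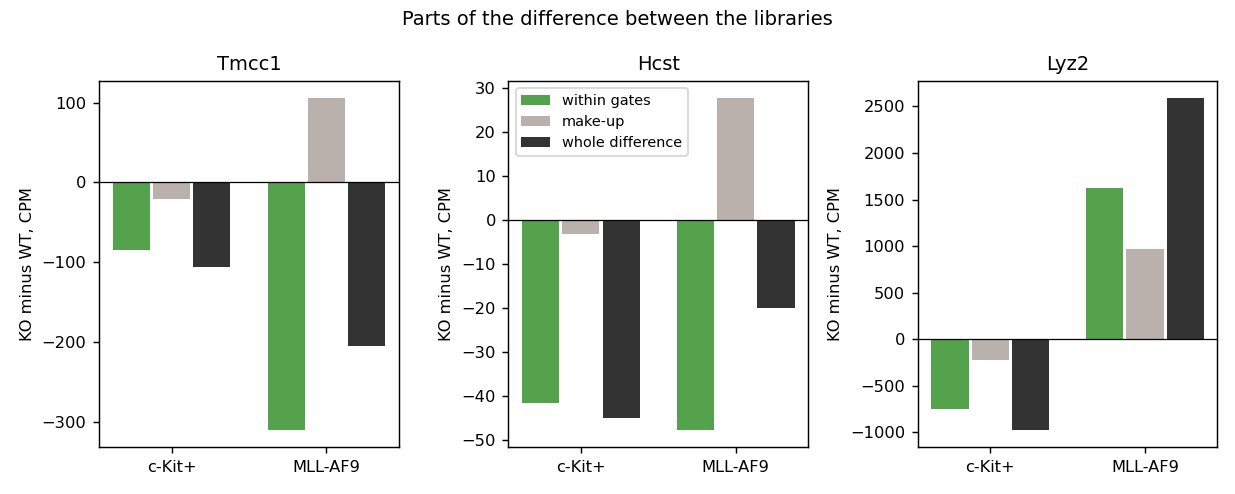
KO minus WT difference in CPM (y axis, separate scale in each panel) for each gene in both pairs, with bars for the part within marker gates, the part from make-up and the whole difference. The part within gates counts all other cells as a further group. In c-Kit+ cells both parts are negative for all 3 genes, and in leukaemia the make-up part is positive for Tmcc1 (106 CPM), Hcst (27.7 CPM) and Lyz2 (972 CPM).

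Among partners, paralogs and neighbours in c-Kit+ cells, Tyrobp was level, Lyz1 and Tmcc3 were lower in KO, and Klrk1 and Tmcc2 were higher. Tyrobp, whose end lies 126 bases from that of Hcst, stood at 905.5 CPM (WT) and 908 CPM (KO), a ratio of 1.003 (0.993 to 1.01). Klrk1, the NKG2D receptor with which DAP10 pairs, was rare, at 5.05 and 6.49 CPM. Lyz1 stood at 2.02 and 1.16 CPM, a ratio of 0.577 (0.451 to 0.736), or 0.0550% and 0.0434% of the lysozyme UMIs of both genes. The highest count in 1 cell was 26 of 175 Lyz1 UMIs in WT and 10 of 112 in KO. Its interval leaves out such clumping and is too narrow. The 2 lysozyme transcripts share 15.4% of their 50-base words, and how reads that match both were counted is not given, so the Lyz1 values are uncertain. Tmcc2 stood at 9.36 and 10.9 CPM, and Tmcc3 at 14.5 and 11.5 CPM, a ratio of 0.794 (0.732 to 0.861). In leukaemia the family members went apart, with Tmcc2 at 6.26 CPM (WT) and 21.5 CPM (KO) and Tmcc3 at 20.02 and 6.79 CPM.

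Of the 18 annotated genes nearest the members, 3 on each side of each, 4 reached a mean of 5 CPM in c-Kit+ cells. Their log2 differences ran from -0.06 to 0.24. They were Plxnd1 beside Tmcc1, Tyrobp and Nfkbid beside Hcst, and Cpsf6 beside Lyz2. An antisense gene inside Tmcc1, Gm20404, stood at 0.761 and 0.416 CPM in c-Kit+ cells and at 16.2 and 8.54 CPM in leukaemia, and the strand setting of the counting is not given.

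The lists of related genes stayed near the background in c-Kit+ cells. Of 17 tested genes of the DAP10 and DAP12 pathway other than Hcst, 11 were lower and 6 higher in KO and none passed 1.5-fold, with a median log2 difference of -0.07. Of 19 lysozyme, granule and lysosomal genes other than Lyz2, 10 were lower and 9 higher and none passed, with a median of -0.01. Of 14 other genes of the Tmcc family and of reticulum contact or shaping proteins, 8 were lower and 6 higher and none passed, with a median of -0.02. The median over all tested genes was -0.01. Lyz1, which is in the granule list, lay under the level tested.

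In leukaemia the same lists held genes past 1.5-fold in both directions, beside the all-gene median of -0.39. In the DAP list 3 of 17 were lower and 2 higher, with a median of -0.17. Trem1, a DAP12-linked receptor that amplifies inflammatory signals, stood at 25.4 CPM (WT) and 244 CPM (KO). Trem2, a lipid-binding receptor that also signals through DAP12, stood at 3.76 and 7.14 CPM. Pik3cd, the catalytic kinase subunit downstream of DAP10, stood at 131 and 34.2 CPM. Sirpb1b, of a family of DAP12-linked receptors with close copies, stood at 20.7 and 10.45 CPM. In the granule list 6 of 19 were higher and 2 lower, with a median of 0.11. Ngp stood at 5268 CPM (WT) and 14475 CPM (KO), Ltf at 543 and 1218 CPM, Camp at 7553 and 15939 CPM and Lcn2 at 2755 and 5790.4 CPM. These are secondary granule proteins, and all 4 are markers of the secondary granule gate. Their levels and the higher share of KO cells in that gate are thus not separate observations. Lyz2 moved the same way as these 4 and against the 2 lower genes of the list. In the Tmcc and contact list 3 of 14 were lower and 2 higher, with a median of -0.24. Rab7, a GTPase of late endosomes, stood at 153 CPM (WT) and 360.2 CPM (KO), and Osbp, a sterol carrier at reticulum contacts, at 60.8 and 35.8 CPM.

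Likeness was measured as Pearson's r of log2(CPM + 1) over the 14 gates of WT c-Kit+ cells, among 3254 genes whose mean reached 50 CPM and that are no gate markers. The gates share 1 library, so r is a description. Closest to Tmcc1 were Stim2 (0.877), which codes for a calcium sensor of the reticulum, Ets2 (0.867), Rab7 (0.864), Dgkh (0.863) and Washc2 (0.862). Closest to Hcst were Rinl (0.947), Rab27a (0.935), Il18rap (0.920), Arhgap9 (0.919) and Leprotl1 (0.909). Closest to Lyz2 were Pstpip2 (0.942), Pirb (0.939), Rasgrp4 (0.926), Plbd1 (0.916) and Ly6a2 (0.914). The members were less like each other, with r of 0.590 between Tmcc1 and Lyz2, 0.423 between Tmcc1 and Hcst and 0.228 between Hcst and Lyz2. The KO to WT log2 differences of these like genes in c-Kit+ cells lay between -0.24 for Dgkh and 0.17 for Pirb.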

How the data were processed

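The deposited files hold counts of UMIs per gene and cell barcode for 4 libraries of mouse bone marrow cells, made by the authors with Cell Ranger 7.1.0 on mm10, per the submitters' processing notes; the gene annotation and the treatment of reads that match several genes are not given in the sources used here. Barcodes under 500 genes or 1000 UMIs, or above 10% mitochondrial UMIs, were left out. Doublets called by Scrublet (scanpy 1.11.5, expected rate 0.08) were removed, 3.09% to 4.46% of cells. UMIs were summed per library or gate and divided by the library's or gate's total to give CPM. Intervals are exact Poisson for a CPM, exact conditional binomial for a ratio and Clopper-Pearson for a share of cells, all at 95% and for counting error only. They are narrow because each library held at least 86739221 UMIs. Log2 differences add 1 CPM. There is 1 library per group, so no test was made, and no p-value is given.

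Genes were compared where the mean CPM was 5 or more, or 50 or more within a gate. The gates used sets of markers for 17 cell types; the rule that turns markers into gates was set after the data were seen. The 3 members, the gene lists and the markers were chosen with earlier results of these data known. Named were the members, Rbm5, Lyz1, Tyrobp, Klrk1, Tmcc2 and Tmcc3, the 3 annotated genes on each side of each member, the 5 genes most like each member, and from each list at most 4 genes past 1.5-fold with the largest ratios. Kit, Camp and marker genes of the gates were added as checks of labels, free RNA and cell types. Leiden clusters used 2000 variable genes, 30 components, 15 neighbours and a resolution of 0.6. Positions and transcripts come from GENCODE M21, which held 51948 of the 56941 feature identifiers, and promoters from RefSeq. The code for ratios and intervals was also run on simulated Poisson counts, and that for parts on invented counts with a known answer. These runs held no variation between cells or mice, so they check the code only.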

Additional observations from a re-analysis of the deposited data

Results flagged for a closer look

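The KO to WT difference of Lyz2 had opposite signs in the 2 pairs of libraries. It was -0.45 on the log2 scale in c-Kit+ cells and 0.78 in leukaemia, so the leukaemia value was higher by 1.23. With 1 library per group the difference between the pairs was not tested. Within gates the signs were opposite in primary granule progenitors, cycling cells and secondary granule neutrophils, and the late neutrophil gate was lower in KO in both pairs, at 0.717 and 0.919. The KO leukaemia library also differed from its WT library in make-up, which gave 972 CPM of the Lyz2 difference beside 1622 CPM within gates. The median of all genes was -0.39 there, and with median-ratio size factors the Lyz2 value was 1.15.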

How the results depend on the processing

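In c-Kit+ cells the members kept their direction in every alternative tried: no cell filter, a stricter one, doublets kept, size factors, other pseudocounts, equal weight per cell, thinning, and matched gates or clusters. The log2 difference of Tmcc1 (-0.66) was -0.59 with cells weighted equally, and -0.53 with gates and -0.53 with clusters matched. That of Hcst (-0.62) was -0.57 and -0.56 with gates and clusters matched. That of Lyz2 (-0.45) was -0.46 with the stricter filter, -0.44 with size factors, -0.41 with cells weighted equally, -0.40 after thinning, and -0.34 and -0.35 with gates and clusters matched. Its within-gate part (-752 CPM) was -778 with the weights of WT and -725 with those of KO. In leukaemia the scaling mattered more. Tmcc1 (-0.82) was -0.86 without a cell filter, -0.79 with the stricter one, -0.46 with size factors, -1.06 with cells weighted equally, -0.99 after thinning, -1.20 with gates and -0.68 with clusters matched. Hcst (-0.18) turned to 0.19 with size factors, which take the lower median of all genes in the KO library as level, and was -0.14 with cells weighted equally and -0.42 with gates matched. Lyz2 (0.78) was 0.76 without a filter, 0.77 with doublets kept, 1.15 with size factors, 0.58 with cells weighted equally, 0.56 after thinning, 0.48 with gates and 0.92 with clusters matched. The within-gate part of Tmcc1 (-311 CPM) was -255 and -367 with the weights of WT and KO, -335 with stricter gates and -170 with clusters. That of Hcst (-47.8 CPM) was -43.9 and -51.8, and -22.9 with clusters. That of Lyz2 (1622 CPM) was 1750 and 1490, 1550 with stricter gates and 2960 with clusters. Only 3 leukaemia clusters held enough cells of both libraries, with 8.13% of WT and 4.27% of KO UMIs, and all other cells formed a further group. The leukaemia values with clusters matched, log2 and CPM, thus left most cells unmatched and do not check the effect of cell composition. The number of genes lower by 1.5-fold in c-Kit+ cells (19) was 10 among genes reaching a mean of 25 CPM and 233 at 1.2-fold, and the number higher (25) was 9 and 300, and 55 among those reaching 1 CPM. In leukaemia the number lower (3487) was 1580 and 5800 and the number higher (947) was 577 and 1550, and 1420 among those reaching 1 CPM. No paired analysis was possible because each group has 1 library. The labels give no second animal, so the spread between mice is unknown.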
